A study of Saccharomyces cerevisiae with 12 samples.

Results

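The effect of a proteasome mutation on the yeast transcriptome was compared between the first and second pairs of replicates of the same strains. The comparison uses 8 of the 12 samples of the series: 4 of pup2-ts and 4 of WT. They were chosen by strain and by the form of the sample name. Replicates 3 and 4 of each strain carry the word DNAse in the name and replicates 1 and 2 do not. The quantity examined for each protein-coding gene was the interaction, that is, the log2 difference of pup2-ts minus WT in replicates 3 and 4, minus the same difference in replicates 1 and 2. A positive interaction means that the difference of pup2-ts minus WT was more positive, or less negative, in replicates 3 and 4.

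All samples are cultures of Saccharomyces cerevisiae grown in YPD, a rich glucose medium, to an optical density of about 0.5 with no treatment; the growth temperature is not given in the sources used here. The pup2-ts strain is MATa his3Δ1 leu2Δ0 met15Δ0 ura3Δ0 and also carries lys2Δ0, can1Δ::LEU2-MFA1pr::His3 and pup2-ts::URA3. The WT strain is MATa his3Δ1 leu2Δ0 met15Δ0 ura3Δ0 without those alleles, and is called By4741 in the names of replicates 3 and 4. The temperature-sensitive (ts) allele and the other markers differ together between the strains, so their effects cannot be told apart. The labels state that the RNA of every sample was treated with DNAse, so the sources used here do not say what the word in the names marks. The series calls its samples biological replicates. The p-values below rest on the spread between samples of the same strain and pair, pooled for each gene over both strains and both pairs.

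Pup2 sits in the alpha ring that closes the barrel of the proteasome, the protease complex that degrades ubiquitinated proteins. In yeast the genes of the proteasome are activated together by the transcription factor Rpn4, itself a short-lived substrate of the proteasome, and misfolded proteins induce chaperone genes through the heat shock factor Hsf1. Amino acid, nucleotide and phosphate pathways are controlled by separate regulators that respond to what the medium still holds, and their transcripts move with the growth state of a culture.

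Coding genes held 22689004 to 60599134 counts per sample, and 5567 genes were tested. Of these counts, the 10 most abundant genes made up between 11.1% and 13.1% per library with DNAse in the name, against between 5.11% and 7.86% per library without it. Whether the pairs differ by culture, extraction or library cannot be told apart from the labels. The strains were first checked by their markers. URA3, which tags the ts allele, stood at 113 and 121 CPM (counts in 1e6 of a library, scaled by TMM factors) in pup2-ts replicates 3 and 4, against 4.36 and 3.68 CPM in WT replicates 3 and 4. It stood at 91.8 and 98.4 CPM in pup2-ts replicates 1 and 2, against 3.65 and 4.57 CPM in WT replicates 1 and 2. URA3 also tags the ts allele of rpn5-ts, another strain of the series, so it does not tell these mutants apart. PUP2 itself had an interaction of 0.23 ± 0.15 (SE; edgeR adjusted p = 0.32). MET17, the gene of the met15Δ0 allele, was at 191 to 585 CPM in pup2-ts samples and at most 0.0938 CPM in WT samples, so the pup2-ts libraries go against their label at this gene in both pairs. LYS2 was at most 0.208 CPM in pup2-ts samples; its interaction, which passed the test, rests on these trace counts. LYS2 is counted among the called genes below but is not plotted or described further.

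WT replicates 1 and 2 stood apart from each other. The SD of their log2 difference over genes was 0.390, with 142 genes more than 2-fold apart. The same SD was 0.168 in pup2-ts replicates 3 and 4, 0.166 in WT replicates 3 and 4 and 0.164 in pup2-ts replicates 1 and 2, with 9 to 19 genes more than 2-fold apart. Heat shock genes were among those that separated the 2 WT libraries, as described with the chaperones. Because the test pools the spread over groups, its SE for an effect in replicates 1 and 2 does not hold this wider spread in full. The number of genes called for the interaction depended strongly on which library was left out. It was 1181 without WT replicate 1 and 2563 without WT replicate 2, but 10 and 21 without pup2-ts replicates 1 and 2, 12 and 21 without pup2-ts replicates 3 and 4, and 25 and 57 without WT replicates 3 and 4. The counts for gene lists given below are from all 8 libraries. Their shares are to be read beside those of all genes tested: 10% called for the interaction, 5.46% positive and 4.56% negative. A fit with 1 library left out keeps 1 library in that group and takes its spread from the other groups. Leaving out WT replicate 1 or 2 removes the widest spread from the test, so a call there is not added support. All genes called with all 8 libraries kept their sign in each of the 20 alternatives that tested them. These alternatives reuse the libraries from which the genes were called, so a kept sign is not added support.

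With all 8 libraries, 558 genes passed the test for the interaction (10% of those tested; edgeR quasi-likelihood test, adjusted p under 0.05). Of these, 304 had a positive interaction (5.46%) and 254 a negative one (4.56%). This split depended on the scaling: it was 350 positive and 204 negative with relative log expression factors and 380 positive and 202 negative with upper-quartile factors. By the stricter test for a difference beyond 1.5-fold, 22 genes passed (0.395%), 10 positive (0.180%) and 12 negative (0.216%); these were 10 positive and 8 negative with relative log expression factors, and 9 positive and 4 negative with upper-quartile factors. More genes passed the comparison of the strains within a pair. In replicates 3 and 4, pup2-ts differed from WT at 2558 genes (45.9%), of which 1174 were higher (21.1%) and 1384 lower (24.9%), or 1264 higher and 1240 lower with relative log expression factors. In replicates 1 and 2 it differed at 1611 genes (28.9%), of which 771 were higher (13.8%) and 840 lower (15.1%). With limma-voom and sample weights, added after seeing the data, the counts were 3667 in replicates 3 and 4 and 938 in replicates 1 and 2. Across the 5562 genes outside the strain markers, the 2 estimates of the effect of pup2-ts, which share no sample, had a Pearson r of 0.609, and 69.4% had the same sign. This correlation is across genes, which are not independent replicates.

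The called genes were sorted by the effect of pup2-ts in each pair. They were picked for unequal effects, so these forms follow in part from that choice. Over all genes tested, 45.9% passed in replicates 3 and 4 and 28.9% in replicates 1 and 2. The same sorting was not made for all genes. For 284 of the 558 (50.9%), pup2-ts differed from WT in replicates 3 and 4 and did not pass the test in replicates 1 and 2, and for 77 (13.8%) the reverse held. For 119 (21.3%) both effects passed in the same direction with the larger one in replicates 3 and 4, and for 26 (4.66%) with the larger one in replicates 1 and 2. In 47 genes (8.42%) both effects passed in opposite directions. Counting estimates whether or not they passed, the sign was opposite in 241 of the 558. The 8 of the 47 with the largest interaction were ARO10, MET32, GCV2, GCV1, CIS1, MUP3, MHT1 and PRY2, which include enzymes of glycine cleavage and of methionine metabolism. These 8 were picked for the reversal, so the turned order of the strains in their values below follows from that choice.

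**Figure D1:**
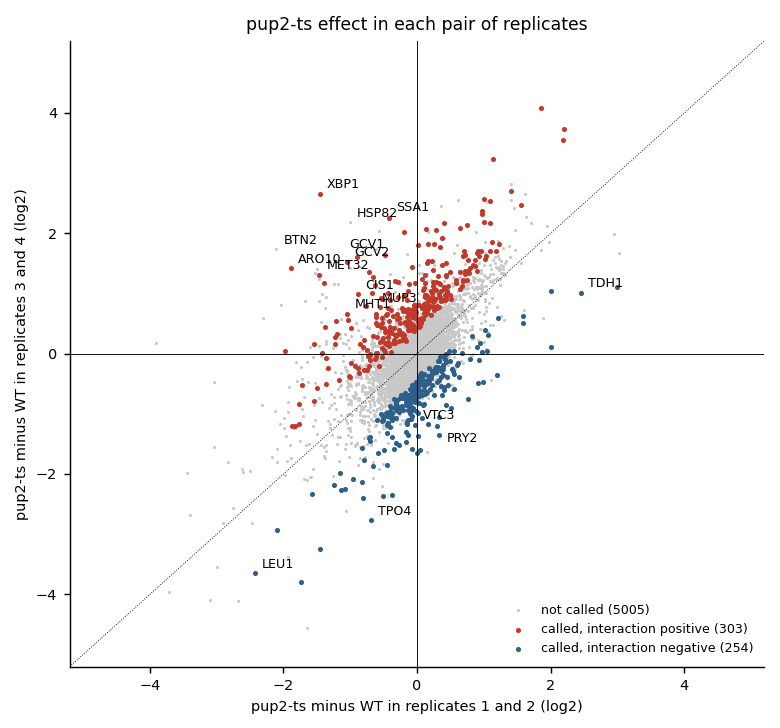
The log2 difference of pup2-ts minus WT in replicates 3 and 4 (vertical axis) is plotted against that in replicates 1 and 2 (horizontal axis), 1 point per gene, with the strain markers left out and 2 genes outside the axes. Genes called for the interaction lie away from the dotted line of equal effects: 303 above it in red and 254 below it in blue, with ARO10, GCV1 and GCV2 at the upper left, where the sign differs.

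The interaction can also be read within each strain, as the difference between pairs of replicates in pup2-ts minus that in WT. Replicates 3 and 4 differed from replicates 1 and 2 at 3083 genes in pup2-ts (55.4%) and at 2756 genes in WT (49.5%). Among the 558 called genes, the larger of the 2 differences was in pup2-ts for 344 (61.6%) and in WT for 214 (38.4%); over all genes tested it was in pup2-ts for 55.4%. The difference passed the test in pup2-ts alone for 230, in WT alone for 140, in both strains with the same direction for 107 and in both with opposite directions for 81. The called genes were picked for a gap between these 2 differences, so the classes follow in part from that choice. The same classes were not counted over all genes. The rpn5-ts strain of the series has the pup2-ts genotype with rpn5-ts::URA3, a ts allele of a subunit of the regulatory particle, in place of pup2-ts::URA3, by its label. Its replicates 2 to 4 are set beside these values without a test; the library labelled rpn5-ts replicate 1 holds LYS2 transcripts against its label and is not used. MET17 was at most 0.0906 CPM in rpn5-ts replicates 2 to 4, so these libraries also differ from those of pup2-ts at that gene. The rpn5-ts difference, of replicates 3 and 4 minus replicate 2, was nearer to that of pup2-ts for 349 of the 558 genes (62.5%), against 57.8% over all genes tested.

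**Figure D2:**
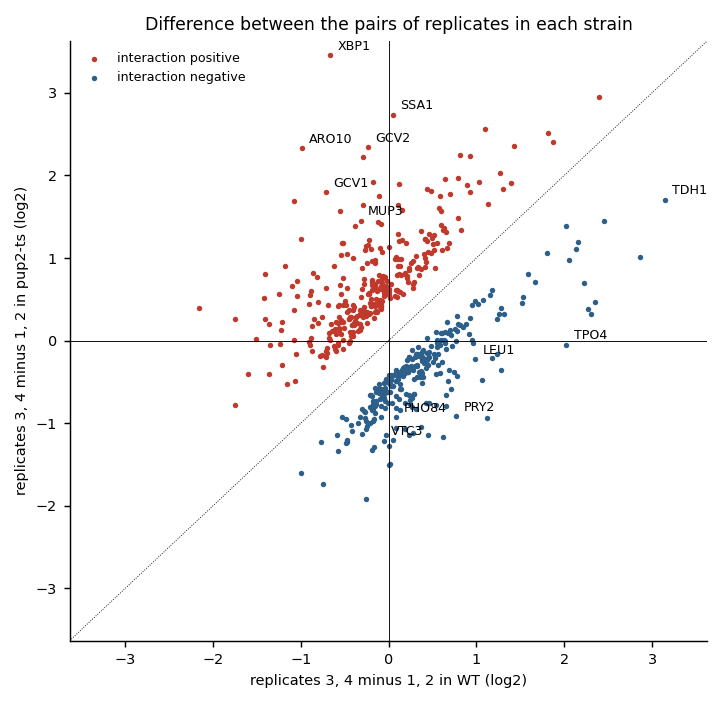
For each called gene outside the strain markers, the log2 difference of replicates 3 and 4 minus replicates 1 and 2 in pup2-ts (vertical axis) is plotted against that in WT (horizontal axis). XBP1, SSA1 and ARO10 sit high, with differences of 3.46, 2.74 and 2.33 in pup2-ts, whereas TPO4 lies at -0.05 on the vertical axis and at 2.03 on the horizontal axis.

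Genes of glycine cleavage changed sign. The glycine cleavage complex splits glycine in mitochondria and feeds one-carbon units to folate, and its transcripts were higher in pup2-ts than in WT in replicates 3 and 4 and lower in replicates 1 and 2. GCV1, its T subunit, stood at 184 and 185 CPM in pup2-ts replicates 3 and 4, against 57.3 and 63.8 CPM in WT replicates 3 and 4. In the other pair it stood at 51.4 and 54.6 CPM in pup2-ts, against 111 and 87.1 CPM in WT replicates 1 and 2. The groups did not overlap in either pair, and the order of the strains was turned round. The difference was 1.60 ± 0.12 in replicates 3 and 4 (edgeR adjusted p = 4.0e-05) and -0.90 ± 0.12 in replicates 1 and 2 (edgeR adjusted p = 0.0013), which gave an interaction of 2.51 ± 0.17 (edgeR adjusted p = 0.0014). GCV2, the P subunit that decarboxylates glycine, stood at 226 and 207 CPM in pup2-ts and 70.4 and 79.7 CPM in WT in replicates 3 and 4. It stood at 44.1 and 41.4 CPM in pup2-ts replicates 1 and 2, against 111 and 65.7 CPM in WT replicates 1 and 2. Its interaction was 2.57 ± 0.30 (edgeR adjusted p = 0.0087). GCV3, the H subunit, had the smaller interaction of 1.53 ± 0.15 (edgeR adjusted p = 0.0041), with effects of 1.20 in replicates 3 and 4 and -0.33 in replicates 1 and 2.

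In replicates 1 and 2 of pup2-ts the 3 subunits were at 41.4 to 96.4 CPM, below both WT replicates of that pair, and in replicates 3 and 4 they were at 184 to 302 CPM. The cytosolic gene SHM2, a serine hydroxymethyltransferase, changed sign too, and stood at 1320 and 1293 CPM in pup2-ts and 683 and 845 CPM in WT in replicates 3 and 4, and at 370 and 372 CPM in pup2-ts and 468 and 623 CPM in WT in replicates 1 and 2. Its interaction was 1.33 ± 0.22 (edgeR adjusted p = 0.016), and that of MTD1, the cytosolic methylenetetrahydrofolate dehydrogenase, was 0.99 ± 0.21 (edgeR adjusted p = 0.026). MIS1, the mitochondrial C1-tetrahydrofolate synthase, went the other way with -0.85 ± 0.13 (edgeR adjusted p = 0.015): it stood at 375 and 357 CPM in pup2-ts and 639 and 658 CPM in WT in replicates 3 and 4, and its effect in replicates 1 and 2 was 0.02. Of the 13 genes of the list of one-carbon and glycine metabolism, 6 were called positive and 1 negative (53.8%, against 10% of all genes), and the median interaction was 0.13, against -0.02 over all genes; it was 0.38 without WT replicate 1. In rpn5-ts, GCV1, GCV2 and SHM2 differed between pairs by 1.30, 1.42 and 1.66, as untested values from 3 libraries; in pup2-ts the same differences were 1.80, 2.34 and 1.82.

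The promoters of these genes share a short element. TGACTC, the sequence recognised by the yeast activators Gcn4 and Bas1, was searched on both strands in the 300 bases before the start codon and was present in 9 of the 13 promoters of this list, against 445 of 5567 (7.99%) over all genes tested. The stretches that hold it before 4 of the called genes are shown, read from the RefSeq R64 assembly (sacCer3), 5′ to 3′ on the strand of the gene, with matches on either strand in capitals. They lie at chrIV:485488-485523 (minus strand, GCV1), chrXIII:637200-637281 (plus strand, GCV2), chrI:58539-58590 (minus strand, GCV3) and chrXII:259608-259693 (minus strand, SHM2).
GCV1: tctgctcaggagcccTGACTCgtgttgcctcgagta
GCV2: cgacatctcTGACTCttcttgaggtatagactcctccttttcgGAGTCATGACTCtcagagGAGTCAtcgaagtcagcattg
GCV3: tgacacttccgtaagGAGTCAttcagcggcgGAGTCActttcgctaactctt
SHM2: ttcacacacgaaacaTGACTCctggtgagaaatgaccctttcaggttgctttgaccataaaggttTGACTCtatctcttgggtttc
GCV2 held 4 matches, GCV3 and SHM2 2 each and GCV1 1. Over the 304 genes with a positive interaction the share of promoters with a match was 10.9%, and over the 254 with a negative one 8.66%. A match is a description of these letters and was not tested as a binding site.

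Purine synthesis uses the same one-carbon units. Of 17 genes in the list, 5 were called positive and 1 negative (35.3%), with a median interaction of 0.18; that median was 0.46 without WT replicate 1 and -0.07 without WT replicate 2. TGACTC was present before 12 of the 17. ADE17, which carries out the last steps of inosine monophosphate synthesis, stood at 1005 and 963 CPM in pup2-ts and 824 and 853 CPM in WT in replicates 3 and 4. It stood at 350 and 299 CPM in pup2-ts and 464 and 665 CPM in WT in replicates 1 and 2. Both strains were higher in replicates 3 and 4, pup2-ts more so, and the interaction was 1.03 ± 0.23 (edgeR adjusted p = 0.034). ADE4, the first enzyme of the pathway, had 0.75 ± 0.18 (edgeR adjusted p = 0.041). SHM2 and MTD1 are counted in this list too, and ADE3 was the other positive call.

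Sulfur and methionine genes leaned the same way as glycine cleavage. In the list of 29 genes, 6 were called positive and 0 negative (20.7%), 25 had a positive estimate, and the median effect of pup2-ts was 0.15 in replicates 3 and 4 and -0.40 in replicates 1 and 2. MUP3, a low-affinity methionine permease, stood at 50.4 and 51.6 CPM in pup2-ts and 21.4 and 24.9 CPM in WT in replicates 3 and 4. It stood at 17.5 and 19.8 CPM in pup2-ts and 29.9 and 27.9 CPM in WT in replicates 1 and 2. The strains changed places between the pairs without overlap, with an interaction of 1.77 ± 0.15 (edgeR adjusted p = 0.0025). MET32, a zinc finger activator of the pathway, stood at 4.96 and 5.63 CPM in pup2-ts and 2.02 and 2.21 CPM in WT in replicates 3 and 4, and at 1.52 and 1.76 CPM in pup2-ts and 5.64 and 3.33 CPM in WT in replicates 1 and 2. Its interaction of 2.77 ± 0.40 (edgeR adjusted p = 0.012) was again a change of sign.

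CYS3, the cystathionine gamma-lyase that makes cysteine, was higher in replicates 3 and 4 in both strains. It stood at 549 and 568 CPM in pup2-ts and 474 and 451 CPM in WT in replicates 3 and 4, against 99.6 and 95.6 CPM in pup2-ts and 140 and 124 CPM in WT in replicates 1 and 2. The difference between pairs was 2.52 in pup2-ts, 1.81 in WT and 2.67 in rpn5-ts, so that the interaction of 0.70 ± 0.12 (edgeR adjusted p = 0.018) was small beside what the strains shared. SAM1, an S-adenosylmethionine synthetase, had an interaction of 0.89 ± 0.18 (edgeR adjusted p = 0.024). MHT1, which methylates homocysteine with S-methylmethionine and is outside the list, had 1.71 ± 0.19 (edgeR adjusted p = 0.0068) with effects of 0.67 in replicates 3 and 4 and -1.05 in replicates 1 and 2. The other positive calls in the list were MET28 and MET1. MET17, another gene of this pathway, is absent from the WT strain and is counted with the markers; in pup2-ts it stood at 585 and 561 CPM in replicates 3 and 4 and at 191 and 201 CPM in replicates 1 and 2, and its part in the other sulfur genes was not tested.

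ARO10 had the second largest positive interaction among called genes outside the strain markers with a mean of at least 10 CPM in a strain and pair. It encodes the phenylpyruvate decarboxylase of the Ehrlich pathway, which turns amino acids into fusel alcohols. It stood at 62.4 and 62.1 CPM in pup2-ts and 25.3 and 21.3 CPM in WT in replicates 3 and 4, and at 10.4 and 14.4 CPM in pup2-ts and 56.2 and 35.5 CPM in WT in replicates 1 and 2. The effect was 1.42 ± 0.22 in replicates 3 and 4 and -1.89 ± 0.23 in replicates 1 and 2, and the interaction was 3.32 ± 0.32 (edgeR adjusted p = 0.0059). The strains did not overlap in either pair. In rpn5-ts the difference between pairs was 2.73, beside 2.33 in pup2-ts and -0.99 in WT.

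**Figure D3:**
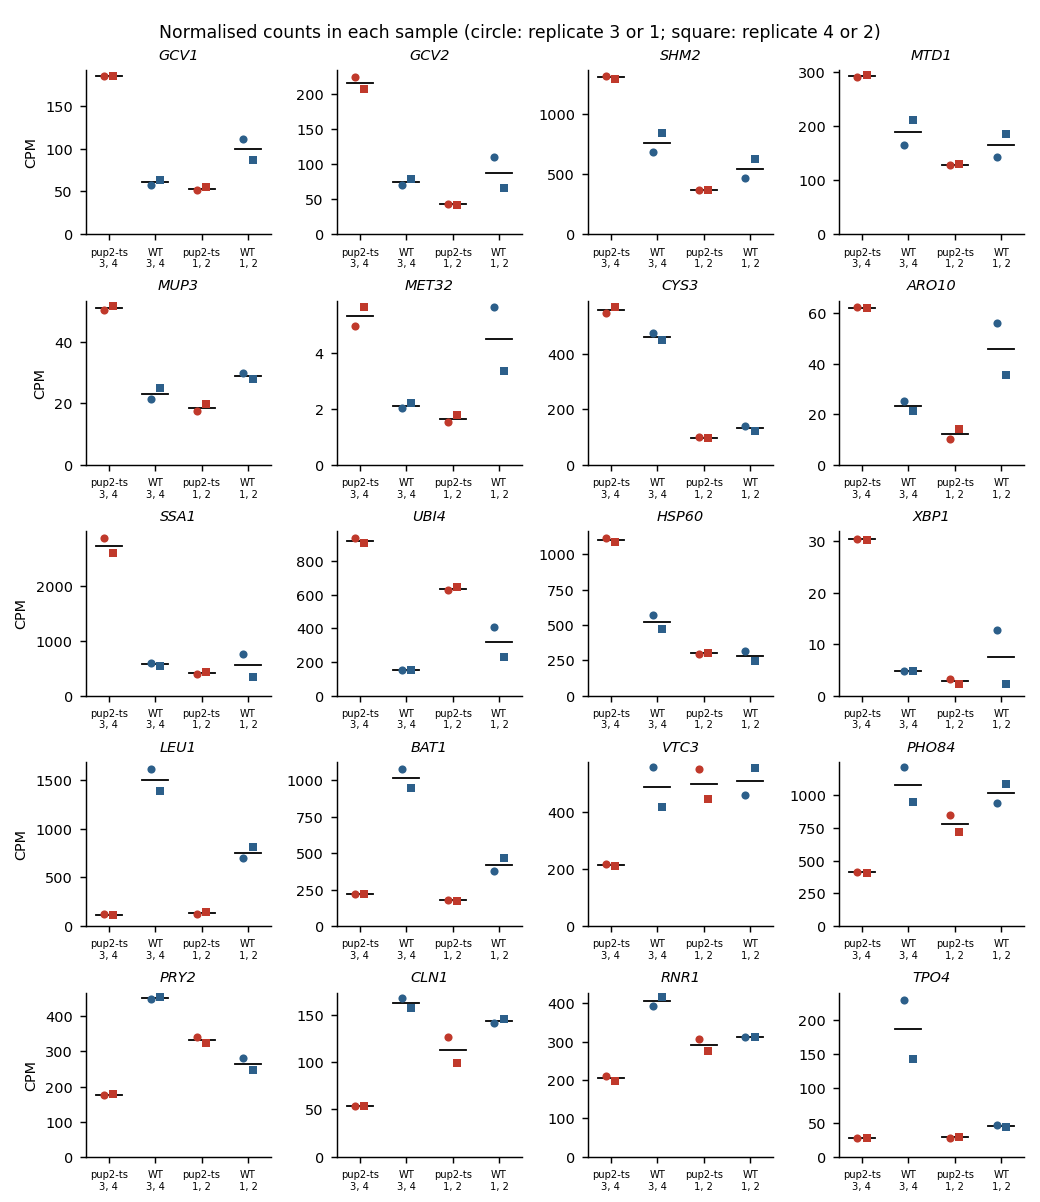
Normalised counts (CPM, from 0) of 20 genes are shown in each sample, with pup2-ts in red, WT in blue, replicates 3 and 4 left of replicates 1 and 2, and lines at the means. In GCV1, GCV2, MUP3, MET32 and ARO10 the red points lie above the blue ones in replicates 3 and 4 and below them in replicates 1 and 2, whereas in VTC3 and PRY2 pup2-ts is the lowest group in replicates 3 and 4.

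Some chaperone genes differed widely between the 2 WT libraries of replicates 1 and 2. SSA1, a cytosolic Hsp70, stood at 2865 and 2601 CPM in pup2-ts and 599 and 544 CPM in WT in replicates 3 and 4. It stood at 393 and 427 CPM in pup2-ts replicates 1 and 2, against 760 and 343 CPM in WT replicates 1 and 2. The strains were apart in replicates 3 and 4 and overlapped in replicates 1 and 2: the effect was 2.26 ± 0.32 in replicates 3 and 4 (edgeR adjusted p = 0.0011) and -0.43 ± 0.31 in replicates 1 and 2 (edgeR adjusted p = 0.34), and the interaction was 2.68 ± 0.44 (edgeR adjusted p = 0.017). The interaction was 2.02 without WT replicate 1 and 3.15 without WT replicate 2. The difference between pairs was 2.74 in pup2-ts, 0.05 in WT and 2.48 in rpn5-ts. SSA2, its near-identical paralog, had an interaction of 0.83 ± 0.22, which missed the threshold (edgeR adjusted p = 0.051). It was 0.97 without WT replicate 1 and 0.71 without WT replicate 2. Reads shared by the paralogs could be split between them to an unknown degree. Of the 17 genes of the Hsp70 list, SSA1 was the only call (5.88%). Estimates of the interaction were positive for 11 and negative for 6. The median effect of pup2-ts over the list was 0.08 in replicates 3 and 4 and 0.11 in replicates 1 and 2. ZUO1 and SSZ1, also of this list, had negative interactions of -0.62 ± 0.17 and -0.69 ± 0.21. Both missed the threshold (edgeR adjusted p = 0.053 and 0.074).

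The SSA1 promoter holds an element of alternating GAA and TTC blocks, the form bound by Hsf1. The motif GAANNTTCNNGAA was searched on both strands in the 300 bases before each start codon and was found before 52 of 5567 genes (0.934%) and before 4 of the 17 Hsp70 genes. The stretch of the SSA1 promoter with its match in capitals, at chrI:141665-141707 on the minus strand of R64, shows the reverse complement of the motif.
SSA1: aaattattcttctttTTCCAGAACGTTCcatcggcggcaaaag
Among called genes the motif stood before 3 of the 304 with a positive interaction (0.987%) and 3 of the 254 with a negative one (1.18%), shares close to that over all genes. The exact motif was absent from the same window before HSP82, AHA1 and BTN2, which are described below.

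HSP82, the inducible Hsp90, stood at 1176 and 1047 CPM in pup2-ts and 256 and 233 CPM in WT in replicates 3 and 4. In replicates 1 and 2 it stood at 355 and 388 CPM in pup2-ts, against 1188 CPM in WT replicate 1 and 308 CPM in WT replicate 2. The 2 WT libraries lay on either side of pup2-ts, and the interaction of 3.19 ± 0.77 missed the threshold (edgeR adjusted p = 0.052); it was 1.94 without WT replicate 1 and 3.86 without WT replicate 2. AHA1, which stimulates the Hsp90 ATPase, was even within each pair and was the only call among 13 Hsp90 genes (7.69%). It stood at 243 and 256 CPM in pup2-ts and 106 and 98.6 CPM in WT in replicates 3 and 4, and at 123 and 128 CPM in pup2-ts and 96.3 and 90.2 CPM in WT in replicates 1 and 2. pup2-ts was above WT in both pairs and further above it in replicates 3 and 4, with an interaction of 0.86 ± 0.11 (edgeR adjusted p = 0.010).

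The disaggregase and the small heat shock proteins had the largest median interaction of the lists described, 1.94 over 8 genes, yet edgeR called 0 of the 8. At an unadjusted edgeR p under 0.05 there was 1; DESeq2 called 2 and limma-voom 0, and edgeR called 3 without WT replicate 1 and 6 without WT replicate 2. The median was 0.29 without WT replicate 1 and 2.71 without WT replicate 2. BTN2, which gathers misfolded proteins, stood at 149 and 145 CPM in pup2-ts and 44.7 and 43.9 CPM in WT in replicates 3 and 4. In replicates 1 and 2 it stood at 79.3 and 78.6 CPM in pup2-ts, against 603 CPM in WT replicate 1 and 75.3 CPM in WT replicate 2. WT replicate 1 was far above every other sample and WT replicate 2 was close to pup2-ts. HSP26 showed the same arrangement, with 106 CPM in WT replicate 1 and 13.7 CPM in WT replicate 2, and HSP42 had 296 and 29.0 CPM there. At HSP104, the disaggregase, pup2-ts had 833 and 798 CPM in replicates 3 and 4 and 406 and 336 CPM in replicates 1 and 2, against 605 and 504 CPM in WT replicates 3 and 4, 911 CPM in WT replicate 1 and 226 CPM in WT replicate 2; its interaction was 1.17 ± 0.79 (edgeR adjusted p = 0.34). What set WT replicate 1 apart is not given in the labels, and its part in the interactions of other genes was not tested beyond leaving it out.

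**Figure D4:**
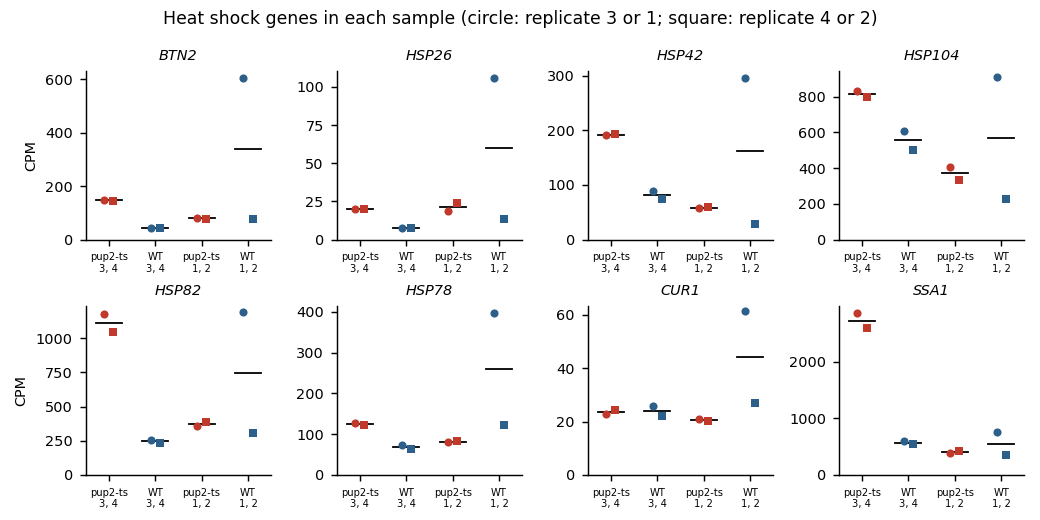
Normalised counts (CPM, from 0) of 8 heat shock genes are shown in each sample, with pup2-ts in red, WT in blue and lines at the means. WT replicate 1, the blue circle in the last column, was at 603 CPM for BTN2 and 1188 CPM for HSP82, against 75.3 and 308 CPM in WT replicate 2, whereas the 2 samples of each other group lay close together.

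Among mitochondrial chaperones and proteases, 9 of 12 genes were called higher in pup2-ts in replicates 3 and 4 (21.1% of all genes were) and 3 in replicates 1 and 2 (13.8% of all genes). HSP60, the mitochondrial chaperonin, stood at 1120 and 1089 CPM in pup2-ts and 571 and 471 CPM in WT in replicates 3 and 4, and at 296 and 303 CPM in pup2-ts and 315 and 245 CPM in WT in replicates 1 and 2. The strains overlapped only in replicates 1 and 2, and the interaction was 0.99 ± 0.20 (edgeR adjusted p = 0.024). PIM1, the Lon protease of the matrix, was higher in pup2-ts in both pairs, by 1.56 ± 0.15 in replicates 3 and 4 and 0.76 ± 0.15 in replicates 1 and 2; its interaction was 0.80 ± 0.21 (edgeR adjusted p = 0.047). HSP78, the matrix disaggregase, had 2.56 ± 0.68, which missed the threshold (edgeR adjusted p = 0.065). The value was 1.49 without WT replicate 1 and 3.18 without WT replicate 2, with 398 CPM in WT replicate 1 and 121 CPM in WT replicate 2. For the interaction 2 of the 12 were called (16.7%, against 10% of all genes), both positive.

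All 67 mitochondrial ribosomal protein genes had a positive interaction, although only 7 were called (10.4%, near the 10% of all genes). Their median effect was 0.43 in replicates 3 and 4 and 0.08 in replicates 1 and 2, with 55 called higher in replicates 3 and 4 (background 21.1%) and 9 in replicates 1 and 2 (background 13.8%). The median interaction, 0.33, was 0.32 without WT replicate 1 and 0.35 without WT replicate 2. MRPS17, of the small mitochondrial subunit, was among the 7 with an interaction of 0.77 (edgeR adjusted p = 0.024). It stood at 55.2 and 59.8 CPM in pup2-ts and 38.1 and 36.9 CPM in WT in replicates 3 and 4, and at 51.7 and 56.5 CPM in pup2-ts and 66.4 and 53.8 CPM in WT in replicates 1 and 2.

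Proteasome genes had effects of similar size in both pairs. The median effect of pup2-ts over the 14 core genes was 1.30 in replicates 3 and 4 and 1.11 in replicates 1 and 2, and over the 19 genes of the regulatory particle, which unfolds substrates, it was 1.24 and 1.08. All 33 estimates of the interaction were positive, with a median of 0.21 in the core particle (0.28 without WT replicate 1 and 0.12 without WT replicate 2) and 0.22 in the regulatory particle, and edgeR called 0 of the 33. An unadjusted edgeR p under 0.05 was found at 5 of them; DESeq2 called 4 and limma-voom 0, and edgeR called 6 without WT replicate 1 and 9 without WT replicate 2. The core subunit PRE8 stood at 412 and 413 CPM in pup2-ts and 169 and 177 CPM in WT in replicates 3 and 4, and 310 and 330 CPM in pup2-ts and 173 and 177 CPM in WT in replicates 1 and 2. Its interaction was 0.38 ± 0.10 (edgeR adjusted p = 0.053), which was a slightly higher level in pup2-ts replicates 3 and 4 on the same WT level. Among 16 assembly and accessory factors 3 were called (18.8%), all positive. These were the assembly chaperone PBA1 with 0.62 ± 0.13, the deubiquitinase UBP6 with 0.56 ± 0.12 and the adaptor ECM29 with 1.18 ± 0.29 (edgeR adjusted p = 0.026, 0.028 and 0.042); the value of ECM29 was 0.78 without WT replicate 1.

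Of 23 genes of ubiquitin and of Cdc48, the segregase that extracts ubiquitinated proteins, 16 were called higher in pup2-ts in replicates 3 and 4 (21.1% of all genes were) and 14 in replicates 1 and 2 (13.8% of all genes). For the interaction 7 were called positive and 0 negative (30.4%), and the median effect was 1.10 in replicates 3 and 4 and 0.71 in replicates 1 and 2. UBI4, the polyubiquitin gene, stood at 936 and 904 CPM in pup2-ts and 155 and 154 CPM in WT in replicates 3 and 4, and at 626 and 645 CPM in pup2-ts and 405 and 228 CPM in WT in replicates 1 and 2. No samples of the strains overlapped, and the interaction was 1.57 ± 0.32 (edgeR adjusted p = 0.025). UBC5, a ubiquitin-conjugating enzyme for short-lived proteins, stood at 81.3 and 84.7 CPM in pup2-ts and 15.4 and 16.6 CPM in WT in replicates 3 and 4. In replicates 1 and 2 it stood at 35.4 and 38.8 CPM in pup2-ts and 21.9 and 15.9 CPM in WT, and the interaction was 1.40 ± 0.20 (edgeR adjusted p = 0.012). UFD1, a Cdc48 cofactor, and DSK2, a shuttle factor, had 0.69 ± 0.13 and 0.65 ± 0.14 (edgeR adjusted p = 0.023 and 0.026).

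General stress genes, of the kind activated by Msn2 and Msn4, had 6 positive calls and 1 negative among 34 (20.6%, against 10% of all genes). Their median interaction of 0.34 was 0.09 without WT replicate 1 and 0.58 without WT replicate 2. XBP1, a stress-induced repressor, had the largest positive interaction by the same rule, 4.12 ± 0.96 (edgeR adjusted p = 0.047). It stood at 30.5 and 30.3 CPM in pup2-ts and 4.79 and 4.82 CPM in WT in replicates 3 and 4, and at 3.20 and 2.30 CPM in pup2-ts and 12.7 and 2.23 CPM in WT in replicates 1 and 2. The high level was in pup2-ts replicates 3 and 4, while the WT value in replicates 1 and 2 rested on WT replicate 1, without which the interaction was 2.38. STF2 was the negative call, with -1.08 ± 0.23 (edgeR adjusted p = 0.028), and missed the threshold without WT replicate 1 (edgeR adjusted p = 0.056). AMS1, the vacuolar mannosidase delivered by the autophagy machinery, had 2.13 ± 0.40 (edgeR adjusted p = 0.023), and 1.53 without WT replicate 1. Among 24 autophagy genes 3 were called (12.5%, near the 10% of all genes), all positive: the receptors ATG19 and ATG40 with 0.58 ± 0.11 and 1.15 ± 0.24, and the membrane protein ATG9 with 0.84 ± 0.22 (edgeR adjusted p = 0.023, 0.028 and 0.047).

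SNZ1 and SNO1, neighbouring genes of vitamin B6 synthesis that are induced as growth slows, were higher in pup2-ts in both pairs. SNZ1 stood at 301 and 311 CPM in pup2-ts and 31.8 and 32.9 CPM in WT in replicates 3 and 4, and at 80.9 and 80.5 CPM in pup2-ts and 45.2 and 27.8 CPM in WT in replicates 1 and 2. The effect passed the test in both pairs and the interaction was 2.10 ± 0.27 (edgeR adjusted p = 0.0094). That of SNO1 was 2.22 ± 0.46 (edgeR adjusted p = 0.026), and 1.46 without WT replicate 1. In rpn5-ts the differences between pairs were 0.10 and -0.69, beside 1.92 and 1.23 in pup2-ts. The other large positive interactions were those of YBR284W, with 2.22 ± 0.27 (edgeR adjusted p = 0.0087), and DAN1, a cell wall mannoprotein of anaerobic cells, with 2.51 ± 0.44 (edgeR adjusted p = 0.018). DAN1 was lower in pup2-ts in both pairs, at 1.28 and 1.25 CPM in pup2-ts and 10.7 and 7.75 CPM in WT in replicates 3 and 4, and at 0.270 and 0.268 CPM in pup2-ts and 12.7 and 9.55 CPM in WT in replicates 1 and 2.

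Carbon metabolism split. Genes of gluconeogenesis and the glyoxylate cycle had 4 positive calls and 0 negative among 15 (26.7%), with median effects of 0.30 in replicates 3 and 4 and -0.40 in replicates 1 and 2. CIT2, the peroxisomal citrate synthase, stood at 353 and 354 CPM in pup2-ts and 207 and 199 CPM in WT in replicates 3 and 4, and at 281 and 336 CPM in pup2-ts and 673 and 371 CPM in WT in replicates 1 and 2. Its level was above WT in one pair and below it in the other, with an interaction of 1.56 ± 0.34 (edgeR adjusted p = 0.033). PYC1, a pyruvate carboxylase, had 1.77 ± 0.44 (edgeR adjusted p = 0.0496) and 1.12 without WT replicate 1, and CAT2, a carnitine acetyltransferase, had 0.96 ± 0.14 (edgeR adjusted p = 0.013). In glycolysis 14 of 16 genes had a negative estimate of the interaction, but only 1 was called (6.25%, below the 10% of all genes). The median of -0.64 was -0.31 without WT replicate 1 and -1.33 without WT replicate 2. That call was TDH1, a glyceraldehyde-3-phosphate dehydrogenase, with 432 and 422 CPM in pup2-ts and 259 and 165 CPM in WT in replicates 3 and 4, and 133 and 129 CPM in pup2-ts and 22.3 and 25.5 CPM in WT in replicates 1 and 2. pup2-ts was higher in both pairs and less so in replicates 3 and 4, with an interaction of -1.44 ± 0.26 (edgeR adjusted p = 0.021, and 0.071 without WT replicate 1).

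Among 18 genes of hexose transport and glucose sensing, 4 were called positive and 1 negative (27.8%). HXT4, a high-affinity transporter, stood at 32.5 and 30.4 CPM in pup2-ts and 70.2 and 48.2 CPM in WT in replicates 3 and 4, and at 67.3 and 63.3 CPM in pup2-ts and 47.3 and 44.1 CPM in WT in replicates 1 and 2. The order of the strains was turned round, with an interaction of -1.42 ± 0.22 (edgeR adjusted p = 0.015). HXT1, the low-affinity transporter, was lower in pup2-ts in both pairs, by -0.78 ± 0.11 in replicates 3 and 4 and -1.54 ± 0.11 in replicates 1 and 2, and the glucose repressor MIG3 had an interaction of 1.5 ± 0.24 (edgeR adjusted p = 0.015). HXT genes are similar in sequence and can share reads.

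Synthesis of leucine and the other branched-chain amino acids had the largest share of calls of the lists described, 7 negative and 1 positive of 12 (66.7%). In pup2-ts 9 of the 12 were called lower in replicates 3 and 4 (24.9% of all genes were) and 7 in replicates 1 and 2 (15.1% of all genes), with a median effect of -1.02 in replicates 3 and 4 and -0.40 in replicates 1 and 2. LEU1, the isopropylmalate isomerase, stood at 121 and 117 CPM in pup2-ts and 1609 and 1385 CPM in WT in replicates 3 and 4, and at 129 and 150 CPM in pup2-ts and 699 and 809 CPM in WT in replicates 1 and 2. The level in pup2-ts was alike in both pairs while that of WT was higher in replicates 3 and 4, and the interaction was -1.22 ± 0.18 (edgeR adjusted p = 0.014). BAT1, the mitochondrial branched-chain aminotransferase, repeated this at 223 and 223 CPM in pup2-ts and 1077 and 945 CPM in WT in replicates 3 and 4, and 182 and 173 CPM in pup2-ts and 377 and 466 CPM in WT in replicates 1 and 2, with -0.93 ± 0.17 (edgeR adjusted p = 0.019). ILV3, the dihydroxyacid dehydratase, had -1.30 ± 0.17 (edgeR adjusted p = 0.010) and OAC1, the carrier that exports isopropylmalate from mitochondria, -0.82 ± 0.14 (edgeR adjusted p = 0.018). The positive call was BAT2, the cytosolic aminotransferase, which also takes part in amino acid breakdown. The strains differ in leucine markers, since pup2-ts carries LEU2 at CAN1 and WT is leu2Δ0; the part of this in the pathway was not tested.

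The general amino acid control is the response to amino acid shortage led by Gcn4. All 10 genes of this list had a negative estimate and 4 were called (40.0%). ARG4, argininosuccinate lyase, stood at 135 and 138 CPM in pup2-ts and 95.3 and 85.5 CPM in WT in replicates 3 and 4, and at 257 and 263 CPM in pup2-ts and 123 and 102 CPM in WT in replicates 1 and 2. It was higher in pup2-ts in both pairs, with an interaction of -0.61 ± 0.15 (edgeR adjusted p = 0.041). The others called were ARO3, HOM3 and GCN20, at -0.51, -0.50 and -0.43. All 18 aminoacyl-tRNA synthetases had a negative estimate as well, with a median of -0.57, and 4 were called (22.2%). ALA1, the alanine enzyme, stood at 563 and 527 CPM in pup2-ts and 870 and 827 CPM in WT in replicates 3 and 4, and at 556 and 533 CPM in pup2-ts and 525 and 572 CPM in WT in replicates 1 and 2. The difference between pairs passed the test in WT and not in pup2-ts, and the interaction was -0.63 ± 0.13 (edgeR adjusted p = 0.028).

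Many ribosomal protein genes of the cytosol were lower in pup2-ts in replicates 3 and 4. The median effect of the 80 large-subunit genes was -0.48 in replicates 3 and 4 and 0.03 in replicates 1 and 2, and that of the 57 small-subunit genes was -0.45 and 0.09. The edgeR test called 40 of the 80 and 24 of the 57 lower in replicates 3 and 4 (background 24.9%), and 0 of either set lower in replicates 1 and 2 (background 15.1%). For the interaction edgeR called 0 of the 137, with 45 at an unadjusted p under 0.05, while DESeq2 called 26 and limma-voom 0. The number called by edgeR was 22 without WT replicate 1 and 127 without WT replicate 2. The median interactions of -0.51 in the large subunit and -0.52 in the small subunit were -0.26 and -0.29 without WT replicate 1 and -0.79 and -0.79 without WT replicate 2. Most of these genes are duplicated, and the split of reads between copies is unknown.

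Of 23 genes of the G1 and S phases, 12 were called lower in pup2-ts in replicates 3 and 4 (24.9% of all genes were) and 5 in replicates 1 and 2 (15.1% of all genes). Called higher were 5 in replicates 3 and 4 (21.1% of all genes) and 4 in replicates 1 and 2 (13.8% of all genes). CLN1, a G1 cyclin, stood at 53.8 and 53.8 CPM in pup2-ts and 168 and 157 CPM in WT in replicates 3 and 4, and at 127 and 99.1 CPM in pup2-ts and 141 and 145 CPM in WT in replicates 1 and 2. Its interaction was -1.25 ± 0.16 (edgeR adjusted p = 0.0094). CLN2, the partner cyclin, RNR1, the large subunit of ribonucleotide reductase, and POL1, the catalytic subunit of DNA polymerase alpha, had -0.99 ± 0.18, -0.89 ± 0.12 and -0.68 ± 0.10 (edgeR adjusted p = 0.020, 0.010 and 0.015). For the interaction 5 of the 23 were called, all negative (21.7%), with a median of -0.15 (-0.08 without WT replicate 1) and 11 positive estimates.

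PRY2, a secreted sterol-binding protein, stood at 176 and 178 CPM in pup2-ts and 448 and 453 CPM in WT in replicates 3 and 4, and at 340 and 325 CPM in pup2-ts and 280 and 247 CPM in WT in replicates 1 and 2. The 2 samples of each group were close together and the sign changed, which gave an interaction of -1.68 ± 0.12 (edgeR adjusted p = 0.0014). SVS1, a cell wall protein needed for vanadate resistance, stood at 149 and 139 CPM in pup2-ts and 312 and 286 CPM in WT in replicates 3 and 4, and at 176 and 158 CPM in pup2-ts and 129 and 136 CPM in WT in replicates 1 and 2. It also changed sign, with -1.39 ± 0.13 (edgeR adjusted p = 0.0033); SVS1 was chosen after its values were seen, for staying called whichever library was left out. Both promoters hold CACGAAA, the element bound by the G1 activator SBF, here on the opposite strand as TTTCGTG. The stretches are at chrXI:463738-463774 on the plus strand (PRY2) and chrXVI:242890-242944 on the minus strand (SVS1) of R64, with matches in capitals.
PRY2: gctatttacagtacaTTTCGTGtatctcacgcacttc
SVS1: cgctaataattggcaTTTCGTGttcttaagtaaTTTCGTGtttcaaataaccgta
CACGAAA was found on either strand in the 300 bases before 25 of the 254 genes with a negative interaction (9.84%), 7 of the 304 with a positive one (2.30%) and 253 of all 5567 (4.54%). The letters ACGCGT, bound by the related factor MBF, were found before 20 genes with a negative interaction (7.87%), 9 with a positive one (2.96%) and 201 of all genes (3.61%). These shares are descriptions and were not tested. CLN1 and CLN2, described above, held no CACGAAA in these 300 bases. RNR1 held no ACGCGT there but held CACGAAA on the opposite strand, as TTTCGTG, whereas POL1 held 2 matches of ACGCGT. Of the 23 promoters of the G1 and S phase list, 3 held CACGAAA (13.0%) and 8 held ACGCGT (34.8%).

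In the cell wall list, 5 of 26 genes were called, all negative (19.2%). CWP2, a major mannoprotein of the wall, stood at 390 and 473 CPM in pup2-ts and 2310 and 2252 CPM in WT in replicates 3 and 4, and at 896 and 1003 CPM in pup2-ts and 1708 and 1626 CPM in WT in replicates 1 and 2. It was lower in pup2-ts in both pairs and most so in replicates 3 and 4, with an interaction of -1.59 ± 0.19 (edgeR adjusted p = 0.0087). GAS1, a glucanosyltransferase, changed sign, with effects of -0.58 ± 0.15 in replicates 3 and 4 and 0.55 ± 0.15 in replicates 1 and 2 and an interaction of -1.13 ± 0.21 (edgeR adjusted p = 0.021). WSC2, a sensor of wall stress, and CIS3, a covalently linked mannoprotein, had -0.72 ± 0.13 and -0.77 ± 0.16.

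The phosphate regulon, the genes Pho4 activates when phosphate is scarce, had 7 negative calls and 0 positive among 19 (36.8%). PHO84, the high-affinity phosphate transporter, stood at 415 and 406 CPM in pup2-ts and 1209 and 942 CPM in WT in replicates 3 and 4, and at 843 and 716 CPM in pup2-ts and 940 and 1083 CPM in WT in replicates 1 and 2. WT was similar in both pairs and pup2-ts was lower in replicates 3 and 4, with an interaction of -1.01 ± 0.21 (edgeR adjusted p = 0.026). VTC3, a subunit of the complex that makes vacuolar polyphosphate, stood at 219 and 211 CPM in pup2-ts and 558 and 419 CPM in WT in replicates 3 and 4, and at 552 and 445 CPM in pup2-ts and 461 and 556 CPM in WT in replicates 1 and 2. The strains overlapped only in replicates 1 and 2, and the interaction was -1.16 ± 0.23 (edgeR adjusted p = 0.024). VTC4, its polymerase subunit, and VTC2 had -0.76 ± 0.15 and -0.77 ± 0.17. SPL2, a negative regulator of low-affinity phosphate uptake, had -1.65 ± 0.40 (edgeR adjusted p = 0.042), and missed the threshold without WT replicate 1 (edgeR adjusted p = 0.11) and without WT replicate 2 (edgeR adjusted p = 0.055). The median interaction of -0.72 was -0.60 without WT replicate 1 and -0.64 without WT replicate 2.

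In the list of biotin and NAD synthesis, 3 genes were called positive and 5 negative of 15 (53.3%). BNA1 and BNA5, enzymes of the kynurenine pathway to NAD, had -1.01 ± 0.18 and -0.89 ± 0.12 (edgeR adjusted p = 0.018 and 0.012), whereas BIO2, the biotin synthase, and BNA3, an aminotransferase of kynurenine, had 0.70 ± 0.12 and 0.83 ± 0.13 (edgeR adjusted p = 0.017 and 0.015). BNA1 stood at 32.1 and 32.3 CPM in pup2-ts and 35.4 and 27.6 CPM in WT in replicates 3 and 4, and at 55.3 and 54.7 CPM in pup2-ts and 24.3 and 28.7 CPM in WT in replicates 1 and 2, and the strains differed past the threshold in replicates 1 and 2 (edgeR adjusted p = 0.00086) and not in replicates 3 and 4 (edgeR adjusted p = 0.81). Of 29 genes of the iron regulon, 17 were called lower in pup2-ts in replicates 3 and 4 (24.9% of all genes were) and 22 in replicates 1 and 2 (15.1% of all genes), with medians of -0.50 in replicates 3 and 4 and -0.87 in replicates 1 and 2; for the interaction 2 were called (6.90%), and the median interaction of 0.34 was 0.08 without WT replicate 1.

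The largest negative interaction by this rule belonged to TPO4, a polyamine exporter of the plasma membrane. It stood at 27.4 and 27.3 CPM in pup2-ts and 230 and 144 CPM in WT in replicates 3 and 4, and at 27.7 and 29.0 CPM in pup2-ts and 47.2 and 44.2 CPM in WT in replicates 1 and 2. The difference between pairs was -0.05 in pup2-ts and 2.03 in WT, and the interaction was -2.08 ± 0.27 (edgeR adjusted p = 0.011). Its relative TPO2 was higher in pup2-ts in both pairs, at 320 and 303 CPM in pup2-ts and 129 and 159 CPM in WT in replicates 3 and 4, and 226 and 225 CPM in pup2-ts and 37.0 and 19.6 CPM in WT in replicates 1 and 2, with an interaction of -1.88 ± 0.35 (edgeR adjusted p = 0.024). HPF1, a cell wall mannoprotein known for reducing haze in wine, stood at 52.1 and 45.9 CPM in pup2-ts and 213 and 293 CPM in WT in replicates 3 and 4, and at 25.7 and 22.9 CPM in pup2-ts and 41.1 and 28.2 CPM in WT in replicates 1 and 2. In all 3 the WT level was the one that differed most between pairs, by 2.03, 2.35 and 2.87. NFG1, CSS1, CIP1, IZH4 and the ceramidase YPC1 completed the 10 largest, with interactions of -1.64 to -2.06; CIP1 had no effect past the threshold in replicates 3 and 4 (0.11 ± 0.15, edgeR adjusted p = 0.55) and one of 2.0 ± 0.16 in replicates 1 and 2 (edgeR adjusted p = 0.00013).

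**Figure D5:**
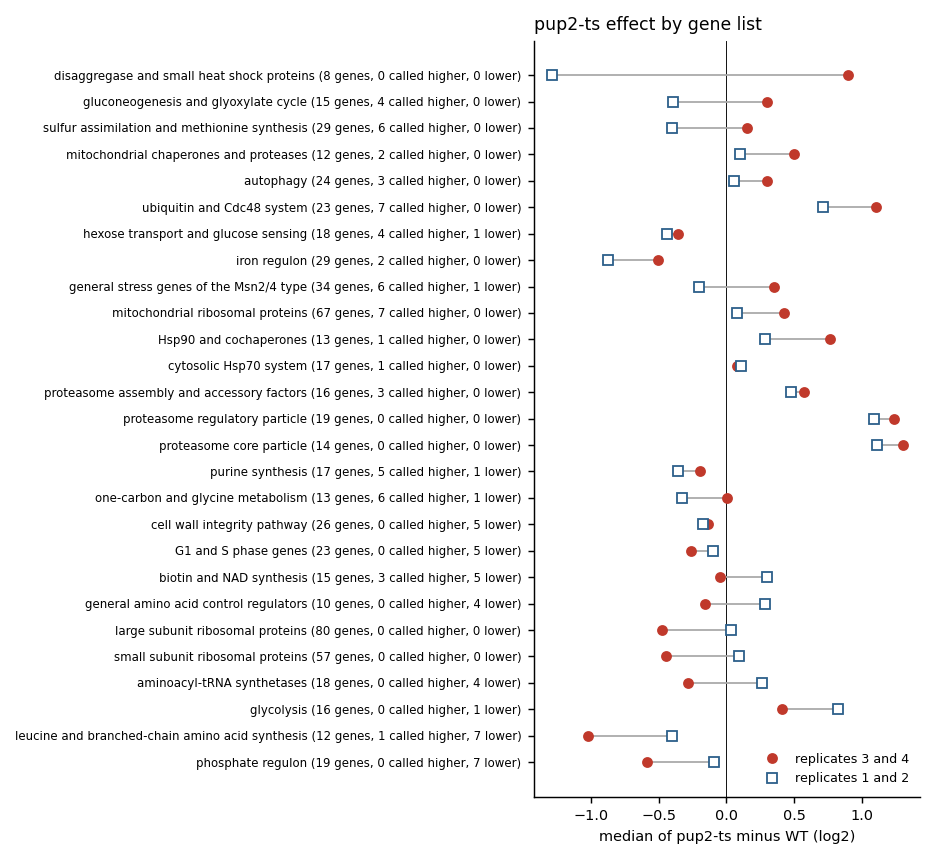
For each of 27 gene lists the median log2 difference of pup2-ts minus WT is shown in replicates 3 and 4 (filled circles) and in replicates 1 and 2 (open squares), ordered by the median interaction, with the number of genes tested and called beside the name. The circle lies right of the square by a small amount for both proteasome particles, and left of it for the phosphate regulon, branched-chain amino acid synthesis and both sets of ribosomal proteins; the median interaction of the disaggregase list, at the top, was 1.94, and 0.29 without WT replicate 1.

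When each library was left out in turn, 9 genes were called in all 8 fits: ALD5, ARO10, GCV1, GCV3, MUP3, PRY2, SVS1, YDR222W and YOL163W. ALD5, YDR222W and YOL163W are named here after their values were seen. ALD5, a mitochondrial aldehyde dehydrogenase, was lower in pup2-ts in both pairs, at 158 and 149 CPM in pup2-ts and 591 and 526 CPM in WT in replicates 3 and 4, and 199 and 213 CPM in pup2-ts and 323 and 326 CPM in WT in replicates 1 and 2. Its interaction was -1.21 ± 0.12 (edgeR adjusted p = 0.0059). The other two are uncharacterised: YDR222W had -1.29 ± 0.11 (edgeR adjusted p = 0.0030), and YOL163W had 1.76 ± 0.15 (edgeR adjusted p = 0.0025) and overlaps another annotated gene on its strand by 340 bases. In at least 5 of the 8 fits, 19 genes were called.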

How the data were processed

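Polyadenylated RNA of the 8 samples was measured as sequencing counts. Hot acid phenol extraction and a KAPA mRNA HyperPrep kit were used, per the labels. The deposited table holds raw counts per annotated feature, which the authors made, per the submitters' processing notes, with STAR 2.5.2b and featureCounts of Subread 1.5.1 on sacCer3. The handling of multi-mapping reads is not given in the sources used here.

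The table has 12768 features; 5585 could be tied through their locus tags to one of the 6021 protein-coding genes listed for R64. Of these, 385 overlap another gene on the same strand, among the named ones GCV1, YBR284W, PYC1, BNA5, URA3 and PGI1. Of the matched intervals, 92.1% contain the R64 gene, so promoters were read from that assembly. edgeR 4.0.16 in R 4.3.3 (filterByExpr, TMM, robust quasi-likelihood F test, two-sided, Benjamini-Hochberg over 5567 genes, 4 residual degrees of freedom) fitted strain, replicate pair and their product. SE is the log2 difference over the square root of F. The same fit was tested against 1.5-fold with glmTreat. CPM are TMM-scaled; values of rpn5-ts use a pseudocount of 0.5 CPM.

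The members, the 59 gene lists and the tests were chosen with earlier results of these data known. Named genes were PUP2 and the strain markers, the 10 largest positive and 10 largest negative called interactions outside the markers with a mean of at least 10 CPM in a strain and pair, the 8 largest with called effects of opposite sign, and up to 4 genes of lowest p from each of 27 lists described; genes named otherwise are marked, apart from HSP104, which gives its list its name, and ADE3, MET28, MET1 and BAT2, which complete a count of calls; these were chosen after their values were seen. Lists are given by counts and medians, with no test. The alternatives used other scaling (upper-quartile or relative log expression), other tools (limma-voom of limma 3.58.1, DESeq2 1.42.0), no filter, 10 CPM in 2 samples, 12 or 11 samples, no robust estimation, all annotated features, the replicate block and each library left out; limma-voom with sample weights was added after seeing the data. The test was tried on simulated data. Tables and figures used Python 3.11.15, pandas 2.3.3 and matplotlib 3.10.9.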

Additional observations from a re-analysis of the deposited data

Results flagged for a closer look

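In 14 of 254 groups of 4 samples of a strain (133 named genes, 10 CPM or more in the highest sample), 1 sample lay far from the other 3 by Dixon's test; chance flags about 1 in 20 groups, and the share here was 5.51%. Of the 14, 10 were WT replicate 1. It was high for the heat shock genes BTN2 (603 CPM), HSP82 (1188 CPM), HSP26 (106 CPM), CPR6 (325 CPM) and CUR1 (61.3 CPM), for PIM1 (217 CPM), AMS1 (36.5 CPM), TFS1 (35.6 CPM) and GPX1 (11.9 CPM), and low for RPS11B (957 CPM). WT replicate 2 was high for RPL37B (1016 CPM) and RPS10A (1724 CPM), WT replicate 3 was high for HXT4 (70.2 CPM), and pup2-ts replicate 1 was low for PUP2 (215 CPM). Each of these samples shares its strain with 2 samples of the other pair of replicates, so the groups of 4 also hold the difference between pairs.

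The effect of pup2-ts differed between the 2 pairs of replicates at 558 genes by the test of the interaction itself.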

How the results depend on the processing

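The count of genes with an interaction (558) was 930 with DESeq2, 906 when the rpn5-ts samples other than its replicate 1 joined the fit (11 samples) and 930 over all annotated features, and 10 to 2563 when 1 library was left out. It stayed within 1.5 times under the other alternatives. The count beyond 1.5-fold (22) was 13 with upper-quartile factors, 41 with DESeq2, 5 with limma-voom, 14 with a filter at 10 CPM, 37 with 11 samples, 85 over all features, 12 with the replicate block and 0 to 443 with 1 library left out. Over all features (11964 tested) 4794 differed between strains in replicates 3 and 4, 4012 in replicates 1 and 2, 4664 between pairs in pup2-ts and 4422 in WT. With 1 library left out these counts ran from 1446 to 3563, 766 to 2845, 2065 to 3907 and 1574 to 3505, and with sample weights, chosen after seeing the data, the count in replicates 1 and 2 was 938. The lone sample left in a group is then assumed to vary like the others. The causes were not tested, except that all features test more units. Deviations of same-numbered pup2-ts and WT samples had a correlation across genes of 0.0038 in replicates 3 and 4 and -0.024 in replicates 1 and 2. These values show no clear shared deviation and cannot settle whether the numbers pair the samples. With the number as a block 408 genes were called, 374 of them among the 558. Of the 133 named genes, 93 were called in the main fit. Of their 2658 values under the alternatives, 1924 stayed as in the main fit, called or not called. Of the rest, 579 lost a call, 155 gained one and 0 changed sign with a call. These values are of all 133 genes, and the alternatives reuse the libraries that gave the calls. The median interaction of all genes was -0.019 with TMM, 0.021 with relative log expression and 0.026 with upper-quartile factors. Each strain and pair holds 2 samples, with 4 residual degrees of freedom, which limits the precision of these calls; depth limits that of genes with few counts.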
